A study of Rattus norvegicus with 8 samples.

Results

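The 150 genes described here are those with the highest mean level on arrays of rat whole blood, outside a few families. They were chosen by that level alone. Each gene with a probe set of exactly 1 gene symbol was represented by its brightest probe set. Symbols starting with Rpl, Rps, Hb, Nduf, Cox, Uqcr, Atp5, Psm, Mrp or S100a were left out, and the 150 genes with the highest mean over the 8 arrays were taken from the 13927 that remained, out of 14217 named genes and 31042 probe sets. The families left out held 53 genes at or above the level of the last member, among them 26 Rpl, 12 Rps and 2 Hb genes. A further 59 probe sets at or above that level had several symbols, among them probe sets of both ferritin chains, Fth1 and Ftl1, and 35 had no symbol here. The 150 are therefore the brightest uniquely named genes, not all abundant transcripts of blood.

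The arrays came from 4 male Wistar rats fed a high-fat diet (Quick fat) and 4 male Wistar rats fed a normal diet (CE-2), each for 8 weeks. All were bought at 7 weeks of age, ate the normal diet in a week of acclimation, and were bled on day 56 after a night without food. No transgene or drug was involved. The study had 10 animals per diet and a further diet with mulberry leaf powder, which is not analysed here, and the labels call the arrays of a diet biological replicates.

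Whole blood holds red cells, platelets and white cells. Mature red cells have no nucleus, but the youngest of them, the reticulocytes, still carry messenger RNA for hemoglobin and for the enzymes that make heme and clear mitochondria. Platelets carry RNA from megakaryocytes, and white cells are rich in transcripts for actin filaments, antigen presentation and translation. In such bulk samples, fewer cells of a type and less RNA per cell cannot be told apart. The blood label was checked against fixed marker lists. Of the markers measured, 6 of 7 for red cell precursors, 5 of 5 for platelets, 5 of 6 for monocytes, 5 of 6 for T cells, 4 of 4 for B cells, 4 of 6 for NK and cytotoxic cells and 4 of 8 for neutrophils lay above the 75th percentile of the arrays, 7.13. The other 4 neutrophil markers lay below the array median. None of 6 liver markers and none of 5 skeletal muscle markers lay above the 75th percentile, and 4 of each lay below the array median.

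Heme synthesis enzymes and other red cell genes made up the largest group among the 150. For 14 of the 20 red cell genes RefSeq gave a promoter sequence. The following 200 bases before the start are shown because they let the red cell members with a GATA motif, the site read by the red cell factor Gata1, be set beside those with the widest spread and the smallest p. Capitals mark matches on either strand to the GATA motif (AGATAA, with the variant form TGATAA), to the TATA box (TATAAA, with the variant form TATATA) or to the CCAAT box. Neither Ubac1 nor Tmcc2 held one of these. All are from GRCr8, read 5′ to 3′ on the strand of the gene.
Alas2 (chrX:22895250-22895449, plus strand): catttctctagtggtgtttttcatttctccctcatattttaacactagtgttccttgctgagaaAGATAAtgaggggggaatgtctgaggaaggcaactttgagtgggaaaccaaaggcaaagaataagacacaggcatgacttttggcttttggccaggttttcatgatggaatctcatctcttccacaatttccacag
Fech (chr18:60248526-60248725, minus strand): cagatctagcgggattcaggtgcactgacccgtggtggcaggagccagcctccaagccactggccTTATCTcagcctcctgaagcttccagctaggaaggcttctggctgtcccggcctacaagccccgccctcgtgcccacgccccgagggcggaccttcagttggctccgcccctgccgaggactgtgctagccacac
Mkrn1 (chr4:69163986-69164185, minus strand): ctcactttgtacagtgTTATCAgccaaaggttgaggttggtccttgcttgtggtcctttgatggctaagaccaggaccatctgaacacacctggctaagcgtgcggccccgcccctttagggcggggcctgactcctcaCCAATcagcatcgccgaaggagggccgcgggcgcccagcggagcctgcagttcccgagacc
Ubac1 (chr3:29246162-29246361, minus strand): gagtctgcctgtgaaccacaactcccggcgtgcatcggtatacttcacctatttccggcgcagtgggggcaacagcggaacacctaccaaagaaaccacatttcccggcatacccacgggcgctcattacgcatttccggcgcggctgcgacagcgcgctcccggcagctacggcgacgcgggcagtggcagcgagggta
Tmcc2 (chr13:46383863-46384062, minus strand): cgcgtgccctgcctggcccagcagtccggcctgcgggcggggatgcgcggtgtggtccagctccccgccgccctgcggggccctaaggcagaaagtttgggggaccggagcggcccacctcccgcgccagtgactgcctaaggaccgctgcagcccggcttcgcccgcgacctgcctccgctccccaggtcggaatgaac

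Over 250 bases before the start, AGATAA or TGATAA on either strand occurred in 3 of 14 red cell members with a window (Alas2, Fech and Mkrn1), and in 14 of 112 other members. It occurred in 10.3% of the 11496 genes with a probe set and a window and in 14.9% of 18999 protein-coding promoter windows. The CCAAT box occurred in 7 of the 14 red cell members, in 39 of the 112 other members, in 35.1% of the genes with a probe set and in 35.5% of all windows. TATAAA was found in 14 of 126 members with a window (11.1%), against 8.01% of the genes with a probe set and 12.3% of all windows. TATATA was found in 5 of 126 (3.97%), against 2.96% and 5.25% in the same order. Promoters of the members held a median of 18 CG dinucleotides in 250 bases, against 15 for 11496 genes with a probe set and a window and 9 for all windows. These matches describe letters in a window and were not tested.

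Deposited levels of the members ran from 14.29 for B2m, the light chain of class I antigen-presenting molecules, to 10.39 for Cd9, a membrane protein of platelets and white cells. The level used is the deposited log2 value, and the brightness of a probe set depends on its probes as well as on the amount of RNA, so the rank is no measure of molecules. After B2m came COX1 (14.25) and COX2 (13.96), which are subunits of cytochrome oxidase encoded in the mitochondrial genome. Their symbols are in capitals and so were not removed with the nuclear Cox genes. Red cell genes took 4 of the first 10 places. They were Ybx3, a cold-shock domain RNA-binding protein (14.17), Bpgm, the enzyme that makes bisphosphoglycerate (14.02), Bnip3l, a receptor for the removal of mitochondria (14.00), and Car2, a carbonic anhydrase (13.90). The other places went to the neuropeptide Npy (13.89), the glutamine synthetase Glul (13.81) and the small mitochondrial protein Stmp1 (13.80).

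At the lower limit, the last 5 members were Ap2m1 (an adaptor subunit of endocytosis), Selenbp1 (a selenium-binding protein), Pcnp, Arid1b (a chromatin remodelling subunit) and Cd9, at levels from 10.40 to 10.39. Just outside stood Vopp1 and Laptm5 at 10.39 and Sub1, Ube2r2 and RT1-Da at 10.38. The limit therefore cuts through a dense stretch of levels. All 150 members were among the 150 highest in every one of the 8 arrays. This was nearly fixed in advance, since the rule used the mean of these same arrays and deposited values hardly differed between them.

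**Figure D1:**
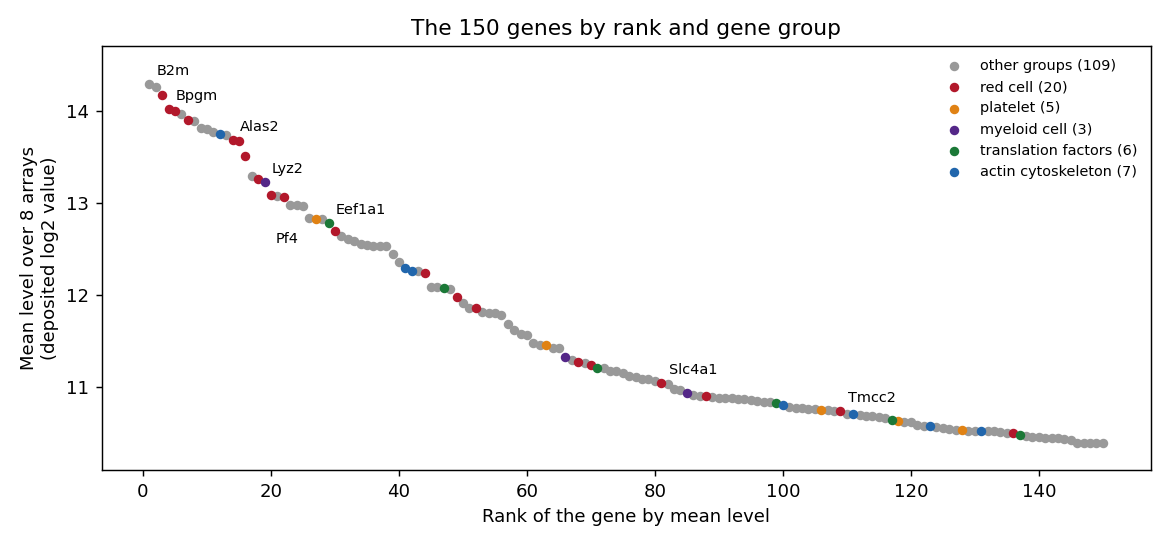
Mean deposited log2 level over the 8 arrays (vertical axis) of the 150 genes against their rank (horizontal axis), coloured by gene group with the number of genes. Red cell genes are 20 of the 150 and lie from rank 3 down the list, and levels run from 14.29 to 10.39.

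By function, 71 of the 150 belonged to 17 of 21 gene lists written from general knowledge. Besides the 20 red cell genes these were 8 genes of small G proteins and signalling, 7 of the actin cytoskeleton, 6 translation factors, 5 platelet genes, 5 antioxidant genes, 4 leukocyte surface genes, 3 lysosomal or protease inhibitor genes and 3 myeloid cell genes. MHC class I and RNA binding had 2 each, and 6 lists had 1 member each (Cd52 of lymphocytes, the tubulin Tubb1, Cd74 of class II presentation, Pcbp2, Irf7 and Nedd8). A further 74 fell into 8 groups made after the values were seen. The largest were 15 genes of membrane traffic and membrane proteins, such as Sec61g of the translocon, and 14 genes of kinases, phosphatases and G protein signalling, such as the cytokine receptor kinase Jak1. No gene of the glycolysis, chaperone, chromatin or mitochondrial membrane lists was among the 150. For the first 3 lists this partly reflects the rule, which left out probe sets with several symbols. Such probe sets above the limit included those of Gapdh (10.68) of glycolysis and of the chaperones Hspa8 (10.90) and Ppia (10.91). A probe set shared by H3f3a and H3f3b of the chromatin list stood at 13.27. The genes Serf2, Dazap2, Cdr2, Rec114 and Pcnp were in no group.

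Between arrays, the deposited values of a gene hardly differed. The SD over the 8 arrays had a median of 2.31e-05 for the 150 genes and 6.90e-06 for all 14217 genes, so deposited differences are not log2 ratios of RNA amount and no fold changes are given. Differences are therefore stated as high-fat minus normal in multiples of how widely that probe set varied within the diets (the pooled SD), a unit written within-group SDs. The value of an animal is given as its deviation from the 8-array mean of the gene in the same unit.

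The spread differed among the members by more than 5 orders of magnitude, from 1.61e-07 for B2m to 0.0629 for Tmcc2. It was smallest among the very brightest. The 10 brightest genes had a median SD of 2.11e-06, those ranked 11 to 50 had 1.04e-05, those ranked 51 to 100 had 4.28e-05 and the last 50 had 5.08e-05. The 150 genes next in rank, at levels from 10.39 to 9.60, had 4.45e-05, and the 9127 genes at levels of 7.20 and below had 5.43e-06. Wide spread was concentrated in few members. An SD over 0.001 was found in 6 of 150 members (4.0%), against 0.710% of all genes. The share was 2.0% in the 150 genes next in rank, 3.33% at levels from 9.60 to 8.88 and 2.83% from 8.88 to 8.26. It was 0.208% at levels of 7.20 and below. The members thus stood less far from genes near them in level than from all genes. An SD under 1e-05 was found in 44 of 150 members, against 8658 of 14217 genes.

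**Figure D2:**
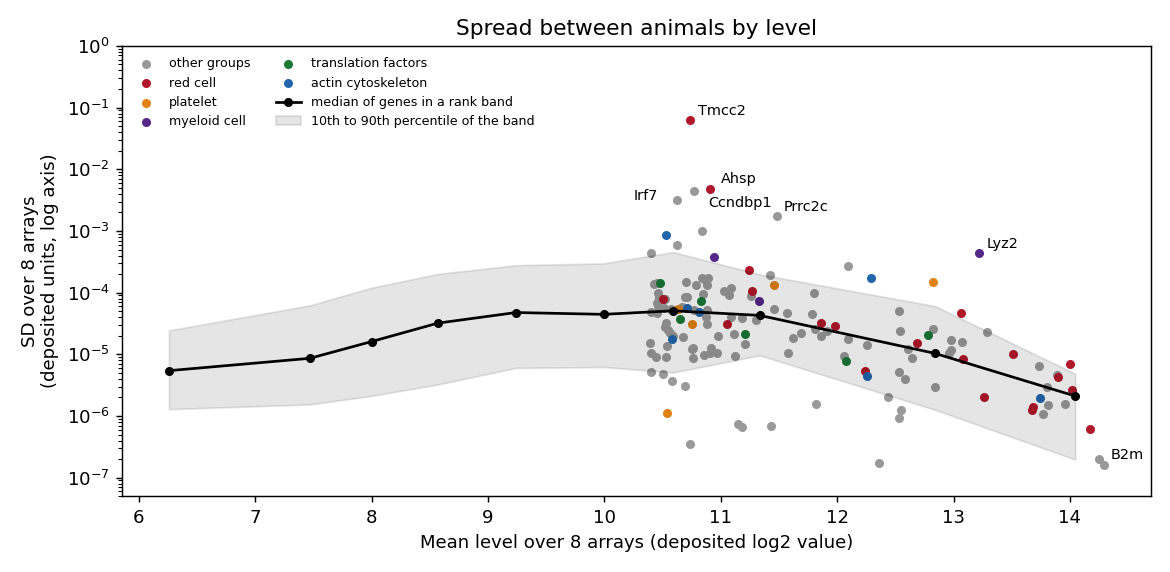
SD over the 8 arrays in deposited units (vertical axis, log scale) against the mean level (horizontal axis) for the 150 genes, with the median and the 10th to 90th percentile of genes in bands of rank. Tmcc2 lies highest at 0.0629 and B2m lowest at 1.61e-07, and the band median falls to 2.11e-06 for the 10 brightest genes.

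The widest members were the membrane protein gene Tmcc2, the hemoglobin chaperone gene Ahsp, the cyclin D-binding protein gene Ccndbp1, the interferon regulator gene Irf7 and the RNA-binding protein gene Prrc2c. Tmcc2 had the third largest SD of all 14217 genes and Ahsp ranked 28. Tmcc2 had levels of 10.8889, 10.7276, 10.7269 and 10.7052 in the high-fat animals, against 10.7080, 10.7112, 10.6991 and 10.7156 in the normal animals. High-fat replicate 1 stood alone at the top and the other 7 animals lay close together, so the diets overlapped. The difference of 0.888 within-group SDs had a limma adjusted p of 1. Ahsp, which keeps free alpha globin soluble, had levels of 10.9190, 10.9064, 10.9109 and 10.9110 in the high-fat animals, against 10.9033, 10.9060, 10.9061 and 10.9092 in the normal animals. High-fat replicate 1 was again the highest, and normal replicate 4 lay above high-fat replicate 2. Ccndbp1 ranged from 10.7657 to 10.7720 in high-fat animals and from 10.7569 to 10.7692 in normal animals. Prrc2c ranged from 11.4781 to 11.4795 in high-fat animals and from 11.4755 to 11.4813 in normal animals. For Prrc2c the normal group held both extremes, replicate 3 at the bottom and replicate 4 at the top.

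No member passed the test between the diets. By limma, an empirical Bayes test run over all 31042 probe sets with Benjamini-Hochberg adjustment, 0 of 150 members passed an adjusted p of 0.05, where 0% of all probe sets were called. At an unadjusted p under 0.05 there were 5 members (3.33%), against 2.25% of all probe sets. Of these, 4 were higher in the high-fat group (2.67%), where the share over all probe sets is 0.95%, and 1 was lower (0.667%), where it is 1.3%. The diets did not overlap in 1 member (0.667%), against 1.44% of all probe sets. That member lay above in the high-fat group, where the share over all probe sets is 0.586%, and 0 members lay below, where it is 0.857%. With 1 to 5 members in each count, these shares rest on few genes.

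In direction, 87 of 150 members (58.0%) had a higher mean in the high-fat group, 62 a lower one and 1 an equal one, against 47.4% higher and 52.5% lower over all genes. The median difference was 0.122 within-group SDs over the members and -0.0374 over all genes. The next 150 genes had 85 higher and a median of 0.103. The sign of the members' median depended on the processing and on 1 animal. Centring each array on its median, with every animal kept, moved the members' median to -1.056 and that of all genes to -1.205. Of the animals left out in turn, only normal replicate 3 changed the sign. Without normal replicate 3 the members' median was -0.193, with 64 members higher and 86 lower, while the median of all genes was -0.0932. Then 4 members had an unadjusted limma p under 0.05, 2 higher (1.7% of all probe sets) and 2 lower (2.36%), and the diets did not overlap in 4 members, against 4.86% of all probe sets.

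The member with the smallest p was Ubac1, a subunit of a ubiquitin ligase complex. It deviated by 0.544, 2.51, 2.25 and 1.08 within-group SDs in the high-fat animals, against -1.63, -1.30, -2.998 and -0.450 in the normal animals. All 4 high-fat animals thus lay above all 4 normal ones, and it was the single member for which this held. Its difference was 3.76e-04 ± 7.84e-05 in deposited units (limma SE, n = 4 each), or 3.19 within-group SDs, with an unadjusted limma p of 0.00216 and an adjusted p of 1. The two-sided exact permutation test gave 0.0286, the smallest p that 4 against 4 animals allow. Ubac1 had no second probe set.

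The other 9 members with the smallest p are given as values, since each had a limma adjusted p of 1 and a two-sided exact permutation p between 0.0571 and 0.114. Slc4a1, which exchanges chloride and bicarbonate across the membrane of red cells, deviated by 1.315, 0.983, 2.005 and -0.885 within-group SDs in the high-fat animals, against -0.515, -1.88, -0.427 and -0.594 in the normal animals. High-fat replicates 1 to 3 lay above every normal animal, and high-fat replicate 4 lay among them. Cdr2, a coiled-coil protein, showed the same order, with 0.839, 1.26, 1.802 and -0.710 in the high-fat animals, against -0.736, -0.188, -2.11 and -0.160 in the normal animals. Ctsb, the lysosomal protease cathepsin B, deviated by -0.371, 1.60, 1.68 and 0.286 in the high-fat animals, against -1.035, -0.308, -2.07 and 0.2175 in the normal animals. Here high-fat replicate 1 overlapped the normal range. Selenok, a selenoprotein of the endoplasmic reticulum, was the only one of the 5 with an unadjusted p under 0.05 that was lower, at a difference of -1.63 within-group SDs. It deviated by -1.33, 1.03, -0.779 and -2.18 in the high-fat animals, against 1.09, 1.02, 0.928 and 0.212 in the normal animals. High-fat replicate 2 lay within the normal range and the other 3 below it.

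Of the remaining 5, Eef1e1, a component of the aminoacyl-tRNA synthetase complex, stood at 1.496 within-group SDs, Actg1, cytoplasmic gamma actin, at 1.47, and the antiviral enzyme Rsad2 at 1.46. Ahsp stood at 1.40, and the death-associated kinase Dapk2 at -1.49. Single animals were extreme in several of them. Normal replicate 3 was the lowest of the 8 for Actg1 (-2.63) and Rsad2 (-2.12) and the highest for Dapk2 (2.005), and high-fat replicate 1 was the highest for Rsad2 (2.18), Eef1e1 (2.19) and Ahsp (2.46). The 2 other probe sets of Dapk2 had the same sign, at -1.32 and -0.851. The second probe set of Actg1, at a level of 7.61, had the opposite sign, at -0.356.

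**Figure D3:**
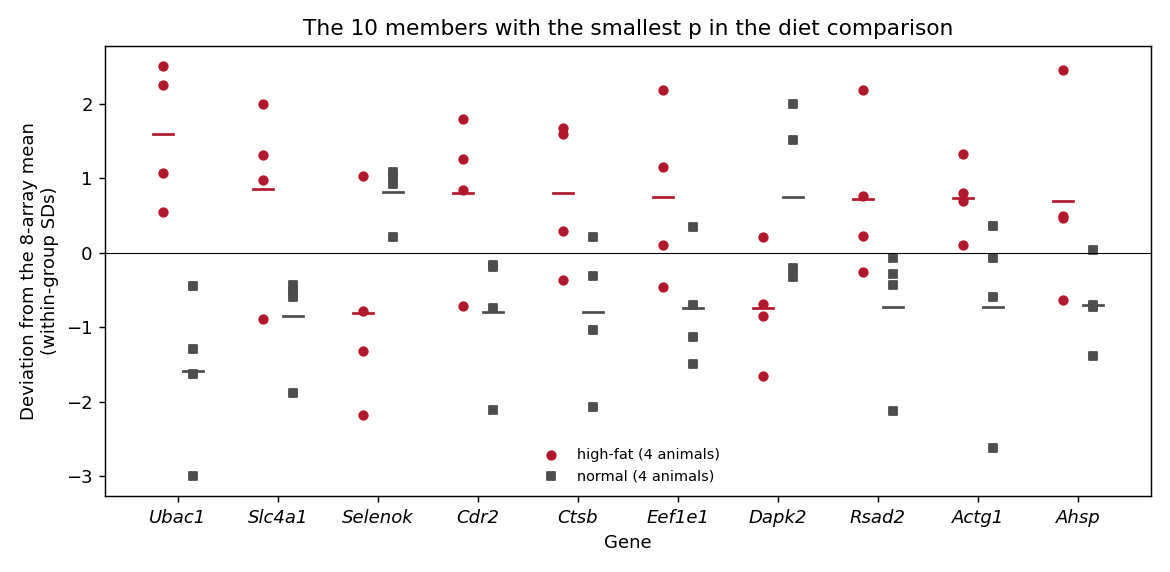
Deviation of each animal from the 8-array mean, in within-group SDs (vertical axis), for the 10 members of smallest limma p between diets (horizontal axis). Circles are the 4 high-fat animals, squares the 4 normal ones, and short lines the means of the diets. The diets separate completely for Ubac1 and overlap for the other 9.

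Most red cell members had a higher mean in the high-fat group, without passing the test. Of the 20 red cell members, 16 had a higher mean in the high-fat group and 4 a lower one, with a median of 0.555 within-group SDs, against 54.6% higher and a median of 0.0466 for the other 130 members. None passed limma. Over the whole red cell list, 42 of 54 measured genes were higher, 12 lower and 0 passed. The direction of red cell genes was already known from earlier work on these arrays, so the count is a description. Fech, the last enzyme of heme synthesis, stood at 1.13 within-group SDs, Tent5c, a poly(A) polymerase, at 1.07, Car2 at 0.895, Ube2o, a ubiquitin enzyme that clears reticulocyte proteins, at 0.804 and Slc25a39, a mitochondrial glutathione importer, at 0.595. Alas2, the first enzyme of heme synthesis in red cells, stood at 0.328. The 4 lower ones were Ybx3 (-0.531), the ubiquitin ligase Mkrn1 (-0.460), the iron-sulfur cluster factors Isca1 (-0.315) and Glrx5 (-0.0941).

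High-fat replicate 4 ran against the other high-fat animals in this group. The median red cell member deviated by 0.650, 0.502, 1.11 and -0.915 within-group SDs in the high-fat animals, against -0.415, -0.219, -0.513 and 0.176 in the normal animals. High-fat replicate 3 had the highest value of the 8 in 12 of the 20 genes. The lowest value lay in high-fat replicate 4 for 6 genes, in normal replicate 3 for 6 and in normal replicate 1 for 5. Bpgm showed the pattern, with 0.550, 0.977, 1.19 and -1.61 in the high-fat animals, against -0.603, -0.231, -0.813 and 0.539 in the normal animals. With any other single animal left out, 15 or 16 of the 20 red cell members were higher. Their medians then ran from 0.326 without high-fat replicate 3 to 0.724 without normal replicate 4. High-fat replicate 4 had the lowest high-fat median for these genes, so a larger difference without it was nearly fixed in advance. Without high-fat replicate 4, 20 of the 20 red cell members were higher and their median was 1.18. Then 14 of the 150 members had an unadjusted limma p under 0.05, all higher, where the share over all probe sets is 1.21%, and 0 were lower, where it is 1.16%. The diets then did not overlap in 10 members, against 3.1% of all probe sets. These 14 (9.33%) included the red cell genes Slc4a1, Ubac1, Slc25a39, Bnip3l and Tent5c, and the smallest adjusted p among the members was 1.00.

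**Figure D4:**
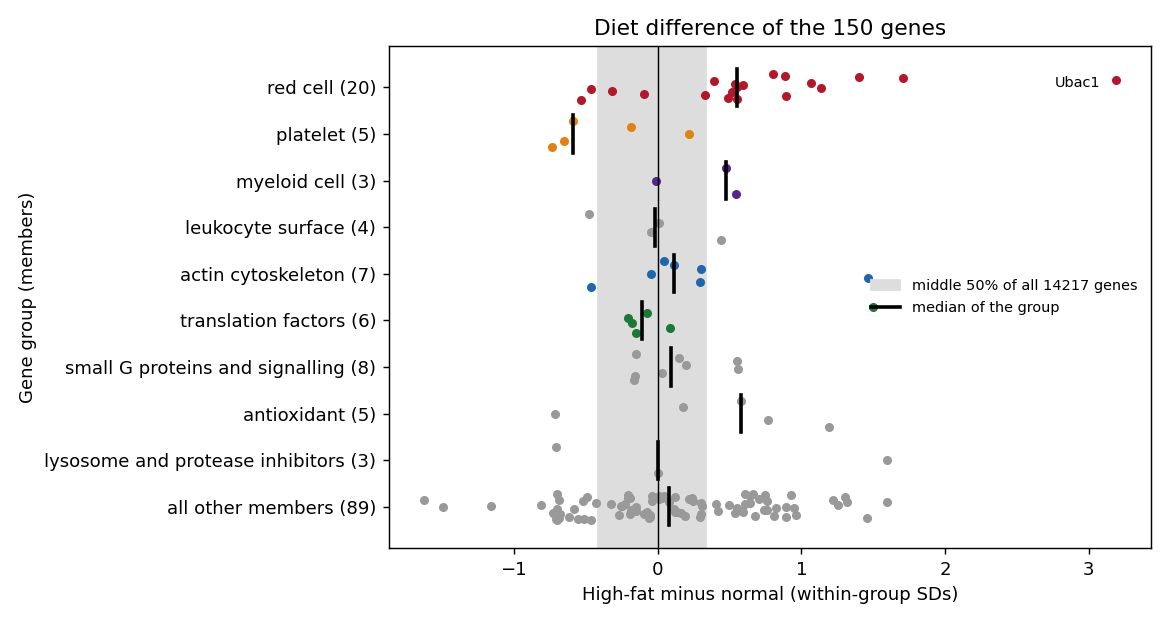
Difference high-fat minus normal in within-group SDs (horizontal axis) of each of the 150 genes, by gene group (vertical axis). Black bars are group medians and the grey band holds the middle of all 14217 genes. The median is 0.555 for the 20 red cell genes and -0.589 for the 5 platelet genes, and Ubac1 stands at 3.19.

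Most platelet members had a lower mean in the high-fat group, and all were lowest in the same animal. Of Pf4 (platelet factor 4), Gng11 (a G protein gamma subunit), Pdlim1 (an actin-associated adaptor), Itga2b (the fibrinogen receptor chain) and Rgs18 (a regulator of G protein signalling), 4 were lower in the high-fat group and 1 higher, with a median of -0.589 within-group SDs. None passed limma. Over the whole list, 7 of 19 measured genes were higher and 12 lower, with a median of -0.0718. All 5 members had their lowest value of the 8 in high-fat replicate 4. For Itga2b this was nearly a tie, at -1.458 in high-fat replicate 4 and -1.452 in normal replicate 3. Pf4 deviated by -0.5155, -0.0199, 0.474 and -1.41 in the high-fat animals, against 1.40, -1.23, 1.03 and 0.281 in the normal animals. Without high-fat replicate 4, 2 of the 5 were higher and the median was -0.258, while without normal replicate 2 it was -0.936.

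Myeloid members were highest in that same animal. Lyz2, the lysozyme of neutrophils and monocytes, Srgn, the granule proteoglycan serglycin, and Fcer1g, the signalling chain of Fc receptors, each had their highest value in high-fat replicate 4 and their lowest in normal replicate 3. Lyz2 deviated by 0.594, -0.447, -0.730 and 1.68 in the high-fat animals, against -0.647, 0.883, -1.22 and -0.110 in the normal animals, so the diets overlapped. The median was 0.474 within-group SDs, while it was -0.293 without high-fat replicate 4 and 0.193 without normal replicate 3. Over the whole myeloid list, 30 of 43 measured genes were higher and 13 lower, with a median of 0.150, and 0 passed limma.

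Several gene groups had their lowest median in normal replicate 3. The translation factors, among them Eef1a1, which brings transfer RNA to the ribosome, Rack1 of the small ribosomal subunit and Eef2, which moves the ribosome along, had a median deviation of -1.46 within-group SDs in normal replicate 3 and between -0.498 and 0.902 in the other 7 animals. That animal had the lowest value in 5 of the 6, and Eef1e1, at 0.340, was the exception. The actin cytoskeleton genes had a median of -1.48 there, and 5 of 7 were lowest there, among them Tmsb4x, which binds actin monomers (-1.15). Arpc2, of the complex that branches actin filaments, was above its mean there, at 0.654, and lowest in high-fat replicate 4, at -1.34. For small G proteins and signalling, such as Btg1, Gnas and the adaptor Ywhah, the median was -1.65 and 7 of 8 were lowest there. The list of leukocyte surface genes, with the membrane proteins Cd53, Ptprc and Cd9 and with Tmbim6, a widely expressed protein of the endoplasmic reticulum, had -1.43.

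Between diets the medians of these groups lay close to 0. The median difference was -0.110 within-group SDs for the 6 translation factors (2 higher, 4 lower), 0.115 for the 7 actin genes (5 higher, 2 lower), 0.0903 for the 8 signalling genes (5 higher, 3 lower) and -0.0176 for the 4 surface genes (2 higher, 2 lower). Without normal replicate 3 these medians were -0.933, -0.441, -0.654 and -0.884 in that order, and those of the translation factors were 0.0938 without normal replicate 2 and 0.149 without normal replicate 4. The actin median was -0.0741 without high-fat replicate 1. None of these genes passed limma. Their full lists had 21 of 38, 32 of 46, 25 of 47 and 14 of 21 measured genes higher, in that order, with 0 passing. Antioxidant members had 4 of 5 higher and a median of 0.577, while the full list had 14 of 24 measured genes higher, a median of 0.133 and 0 passing. The selenoenzyme Gpx1, which reduces peroxides, stood at 1.19, thioredoxin Txn1 at 0.769 and the glutathione transferase Gstp1 at -0.715. Of the 3 lysosomal and protease inhibitor members, Ctsb stood at 1.60, the inhibitor Cst3 at -0.710, and the autophagy protein Gabarap had equal means. Its full list had 22 of 26 measured genes higher and 0 passing. Among single members of other lists, Nedd8, a ubiquitin-like modifier, stood at 1.30 and Irf7 at 1.22, while B2m stood at -0.461 and Cd74 at -0.327.

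**Figure D5:**
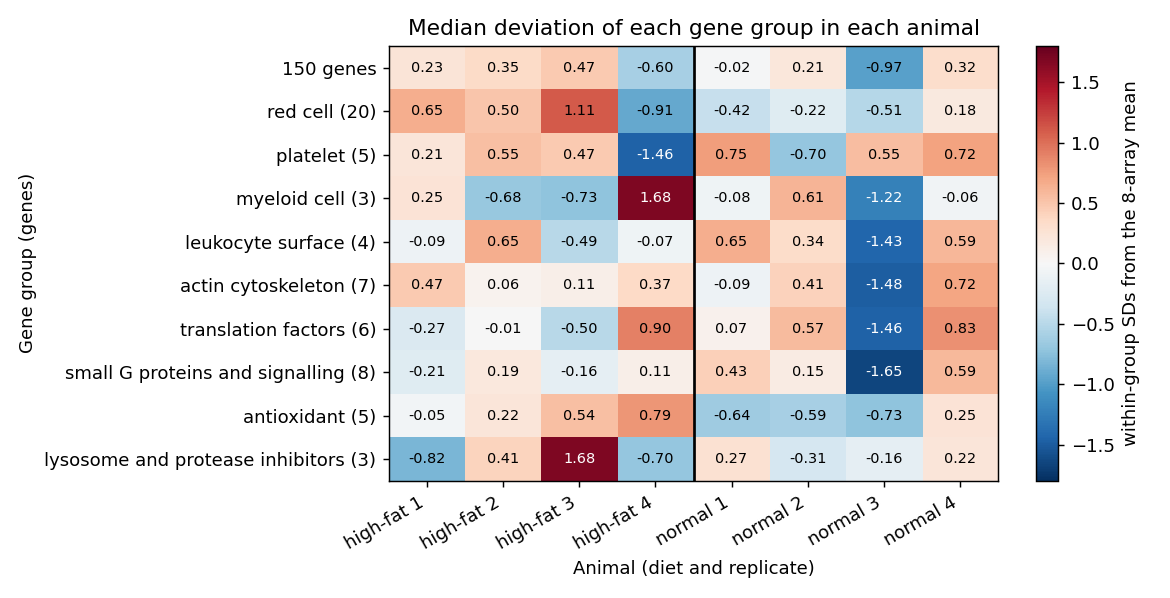
Median deviation from the 8-array mean, in within-group SDs (colour and printed value), of each gene group (rows, with the number of genes) in each of the 4 high-fat and 4 normal animals (columns). High-fat replicate 4 is low for red cell (-0.91) and platelet (-1.46) genes and high for myeloid genes (1.68), and normal replicate 3 is low for most groups.

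The groups made after the values were seen lay near 0 in their medians. They ran from -0.0747 for 8 secreted and defence proteins to 0.133 for 7 genes of protein turnover and autophagy. Single members lay further out. Fis1, a mitochondrial fission factor, stood at 1.31, the Myc antagonist Mxi1 at 1.25, the syntenin gene Sdcbp at 0.960, the iron-release receptor Ncoa4 at 0.896 and the stress kinase Map2k3 at 0.895. On the other side Rgs10, a regulator of G protein signalling, stood at -1.16, the nucleolar protein Rrp12 at -0.811, the phosphatase Nudt4 at -0.730, COX1 at -0.697 and the platelet receptor Clec1b at -0.698. Beyond 1 within-group SD there were 15 members on the high side (10.0%) and 3 on the low side (2.0%), against 5.38% and 6.79% of all genes.

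Across the 150 genes, high-fat replicate 4 and normal replicate 3 stood apart. The median member deviated by 0.234, 0.347, 0.472 and -0.598 within-group SDs in the high-fat animals, against -0.0157, 0.211, -0.974 and 0.317 in the normal animals. Normal replicate 3 held the lowest of the 8 values in 64 members (42.7%), against 24.6% of all genes. High-fat replicate 4 held the lowest in 44 members (29.3%), against 13.7% of all genes, and high-fat replicate 3 the highest in 41 (27.3%), against 12.5%. The next 150 genes shared the first of these, with 90 lowest in normal replicate 3, while 26 were lowest in high-fat replicate 4 and 29 highest in high-fat replicate 3. Markers of several blood cell types had means on 1 side of the normal group, and none of these differences was tested as a list. All 6 monocyte markers and all 6 markers of NK and cytotoxic cells had a higher mean in the high-fat group, as did 6 of 7 red cell precursor markers and 5 of 8 neutrophil markers. All 6 T cell markers and all 5 platelet markers had a lower one, as did 3 of 4 B cell markers. The mean level of the red cell precursor list ranged from 10.0572 to 10.0596 in high-fat animals and from 10.0561 to 10.0572 in normal animals. That of the monocyte list ranged from 8.3668 to 8.3693 in high-fat animals and from 8.3665 to 8.3676 in normal animals. That of the platelet list ranged from 9.9105 to 9.9108 in high-fat animals and from 9.9107 to 9.9108 in normal animals. Both the monocyte and the platelet ranges overlapped, and the red cell precursor ranges met at 10.0572. The NK and cytotoxic list ranged from 7.5724 to 7.5789 in high-fat animals and from 7.5714 to 7.5743 in normal animals, which also overlapped. For the T cell list the range was 8.8225 to 8.8226 in both diets. No defining marker can be at 0 on this scale, and the part of the cell mixture in the values of single genes was not tested.

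A second look at the members came from their other probe sets, which the rule did not use. Of the 150 genes, 84 had 1 probe set and 66 had further ones, 97 in all. The sign of the diet difference was that of the brightest probe set in 46 of the 97 and the opposite in 50, and 1, of Gabarap, had no sign to compare. The share varied with brightness. Among 34 other probe sets at a level of 9 or more, 23 had the same sign and the median correlation of the animals' deviations with the brightest probe set was 0.768. Among 33 from 7.13 to 9 it was 15 and 0.366, and among 30 below 7.13 it was 8 and 0.0785. Each correlation is over the same 8 arrays and is given as a description. Among red cell members, the second probe sets of Bpgm (0.885 within-group SDs), Bnip3l (1.01), Car2 (1.26) and Slc4a1 (0.647) had the sign of the first. Those of Isca1 (1.33, against -0.315 for its brightest), Slc25a39 (-0.550, against 0.595) and Epb41 had the opposite sign. For Mkrn1 the brightest stood at -0.460, and the other 3 stood at -0.0860, 0.0270 and 2.11. Of the 97, 3 (3.09%) had an unadjusted limma p under 0.05, against 2.25% of all probe sets, and they belonged to Mkrn1, Epb41 (-1.91, against 0.393 for its brightest) and Myo5c (2.22, against 0.609).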

How the data were processed

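RNA of whole blood was hybridised to Affymetrix 3′ expression arrays, per the labels' protocols. The values are log2 levels in the table the authors deposited, an inference from their range of 5.19 to 15.25 and medians of 6.60. Background correction, normalization and probe summary are steps not given in the sources used here. Control probe sets, 57 in number, stayed outside every test. Of 31042 probe sets, 20826 had 1 symbol in the platform annotation, 436 several and 9780 none; 147 of the 150 members matched a gene of GRCr8 by gene number.

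Diet and replicate number were read from each title. Diets were compared two-sided by limma 3.58.1 (functions lmFit and eBayes, without covariates) under R 4.3.3, adjusted by Benjamini-Hochberg over all probe sets, with a threshold of 0.05. On simulated data for this comparison with 31042 probe sets, of which 200 were shifted, it recovered 0% of shifts of 3 within-group SDs, 73% of 6 and 96.5% of 10. P-values rest on 4 arrays per diet, and that number limits the precision. In limma the spread of a probe set is drawn towards a spread shared over all probe sets. For the tightest members the shared part outweighs their own, as for B2m, with a within-group SD of 1.68e-07 and a limma SE of 7.75e-07. Group means that differed by at most 1e-12 were counted as equal. The members and lists were chosen with earlier results of these data known.

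Genes were named by a rule: the 10 brightest, the last 5 inside and the first 5 outside the limit, the 10 with the smallest p, the 5 widest, and, for each list with at least 3 members, the 2 brightest and the one with the smallest p. Close pairs of 1 protein family, also part of the rule, were not named for their sequences. Other genes named in the text were chosen after their values were seen. Promoter windows were the first listed per gene in RefSeq (GRCr8). Protein sequences were not used here. Alternatives covered normalization, a filter on dim probe sets, moderation, weighting of arrays, a replicate block, each animal left out, the mean over probe sets and the number of genes taken.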

Additional observations from a re-analysis of the deposited data

Results flagged for a closer look

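In groups of 4 animals, the end value's gap to its neighbour was set against the whole range and compared with Dixon's 95% critical value. Chance passes it in about 1 of 20 groups, and over the 150 genes it was passed in 20 of 300 groups (6.67%). Of these, 8 were low values of high-fat replicate 4 and 7 were low values of normal replicate 3. Among the genes and gene groups named here, 7 of 126 passed. High-fat replicate 1 was far above the other high-fat animals for Tmcc2 (gap ratio 0.878), and normal replicate 2 far below the other normal animals for Slc4a1 (0.886). For the median of the platelet members, high-fat replicate 4 was low (0.832) and normal replicate 2 was low (0.865). Normal replicate 3 was low for the medians of the leukocyte surface members (0.847) and of the membrane traffic and membrane protein members (0.830), and normal replicate 4 was high for the median of the antioxidant members (0.861).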

How the results depend on the processing

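No member passed limma under any of the 15 alternatives run. Over all probe sets the count stayed 0 in 13 of the 14 run on probe sets and was 32 with quantile normalization on top, which also left 0 members at an unadjusted p under 0.05 and 0 with groups apart, because 117 of the 150 members then had 8 equal values. The count of members at an unadjusted p under 0.05, 5 on the deposited values, was 3 among the brighter 50% of probe sets, 3 with trend and robust moderation, 9 with the replicate block (6.0%, against 3.58% of all probe sets), 3 for the 100 brightest genes, 8 for the 200 brightest and 3 without the red cell genes, an alternative added after seeing the data. Leaving out each animal gave 2 to 14 such members, 2 without high-fat replicate 1 or 3 and 14 without high-fat replicate 4, while the share over all probe sets ranged from 1.87% to 4.07% and was 2.37% without high-fat replicate 4. It also gave 2 to 10 members with groups apart, with 10 when high-fat replicate 4 was left out, where the share over all probe sets ranged from 2.72% to 4.86%. The median member ranged from -0.193 to 0.323 within-group SDs. Centring each array on its median moved the median member to -1.06 and that of all genes to -1.21, with 37 members apart (24.7%, against 50.1% of all probe sets), and turned Slc4a1 to -0.324, Ctsb to -0.795, Rsad2 to -0.643 and Actg1 to -1.16. The array medians differ by up to 2.17e-04, more than the SD of most members. Same-numbered animals of the diets had correlated deviations of -0.121, 0.197, 0.355 and 0.140, so the numbers were not taken as pairs. Not every animal correlated best with its own number.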
